A study of Rattus norvegicus with 4 samples.

Results

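The myosin heavy chain genes described here were Myh2, Myh3, Myh4, Myh6 and Myh7, 5 of the 35658 gene names on a rat oligonucleotide array. They were found by the gene name printed in the array files or by an older symbol in the description of a probe, and each probe was followed in both channels. Myh3 had 2 probes and each of the other members had 1, which gave 6 of the 41012 probes. All 6 were well above background in both channels on every array, so no member was lost to the filter on dim probes.

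The study measured RNA of the gracilis, a long thin muscle of the inner thigh, in male rats of the Sprague-Dawley strain. The injured muscles had 4 h of ischemia and then 1, 3, 7 or 14 days of reperfusion, and the control was gracilis from sham-operated rats of the same strain and sex. Each time point was 1 array read in both colours, with injured RNA in Cy5 and sham RNA in Cy3, and the dyes were not swapped on any array. The labels give no age, do not say at what time the sham muscles were taken, and do not say whether the 4 sham channels hold RNA of the same animal. With 1 injured and 1 sham sample for each day, no day has a test, and a dye effect particular to a probe cannot be told apart from injury.

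Myosin heavy chain is the motor protein of the thick filament, and the isoform a fibre makes sets how fast it shortens. Adult rat fibres make the slow isoform (Myh7) or 1 of the fast isoforms IIa (Myh2), IIx (Myh1) and IIb (Myh4), while embryonic (Myh3) and perinatal (Myh8) isoforms belong to developing muscle and return for a time in fibres that regenerate. Myh6 is the alpha isoform of heart muscle and lies beside Myh7 in the genome, whereas the fast and developmental genes lie together in another cluster.

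The probes are shown first, because what each one can bind limits what its value means. On the rn4 build the Myh3 probes lay at chr10:53800570-53800629 (the brighter, probe 1) and chr10:53799519-53799578 (probe 2), the Myh2 probe at chr10:53889243-53889302 and the Myh4 probe at chr10:53953933-53953992, all on the plus strand. The Myh6 probe ran over chr15:33044576-33044983 and the Myh7 probe over chr15:33073020-33073645, both on the minus strand. Each of these last probes has 60 bases but covers 408 or 626 bases of genome, so both cross an intron. Capitals mark the 27 bases that the Myh6 and Myh7 probes share, bases 12 to 38 of the Myh6 probe and bases 1 to 27 of the Myh7 probe.
Myh4: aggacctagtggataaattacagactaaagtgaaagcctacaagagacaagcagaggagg
Myh2: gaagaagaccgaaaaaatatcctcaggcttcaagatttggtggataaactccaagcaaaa
Myh3 probe 2: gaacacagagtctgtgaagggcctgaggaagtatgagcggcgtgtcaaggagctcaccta
Perinatal myosin probe: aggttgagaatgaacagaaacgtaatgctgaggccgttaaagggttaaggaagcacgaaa
Myh6: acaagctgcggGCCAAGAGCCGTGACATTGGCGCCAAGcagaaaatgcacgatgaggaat
Myh7: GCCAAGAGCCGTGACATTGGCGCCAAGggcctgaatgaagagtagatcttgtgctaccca

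No other pair of these probes shared more than 10 bases in a row, and no other probe of the array shared 16 or more with a member. Whether Myh7 RNA bound the Myh6 probe was not tested, so the Myh6 values are given as those of the probe. The perinatal probe is not a member. Its description in the array files names Myosin-8, perinatal, and it lay at chr10:53999978-54000037, beyond Myh4 in the fast and developmental cluster.

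A ratio below is log2 of injured over sham after background correction and loess within the array, and a level is the log2 signal of 1 channel after quantile normalization between arrays. Levels compare days for 1 probe and not 1 probe with another. Detection differed between the channels, with 64.4% to 68.7% of probes well above background in injured muscle and 34.7% to 47.3% in sham muscle. A set of 40 probes printed 10 times on each array gave a median SD of the ratio between 0.0353 and 0.0723, which is spot noise and holds no difference between animals. The skeletal muscle markers Acta1, Ckm, Des, Mb, Ttn and Neb were all present, and their signals summed to between 126606 and 235078 in the 4 sham channels. In bulk RNA, fewer muscle cells and less RNA in each cell cannot be told apart.

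The 6 probes took 3 courses. The adult fast genes Myh4 and Myh2 were far below sham on days 1 and 3 and above it on day 14. Embryonic Myh3 was below sham on day 1 and among the highest ratios of the whole array on day 7. Slow Myh7 and the Myh6 probe were below sham on all 4 days. On day 1, 6 of 6 member probes were at least 2-fold lower and 0 were higher, where 4.78% of all probes used were lower and 1.17% higher. On day 3, 5 were lower (all but Myh3 probe 1) and 0 higher, against a background of 3.89% lower and 2.32% higher. On day 7, the 2 Myh3 probes were at least 2-fold higher and Myh6 and Myh7 lower, where 3.12% of probes were higher and 1.25% lower. By day 14, 4 probes were higher (Myh2, Myh4 and both of Myh3) and the same 2 lower, against 2.99% and 1.58%. The sizes depend on the scaling. Median centring in place of loess raised the ratios of the probes used on a day, with a median rise of between 0.322 and 0.481. The 24 ratios of the members rose by between 0.74 and 1.60, so values under median centring are given for each gene.

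**Figure D1:**
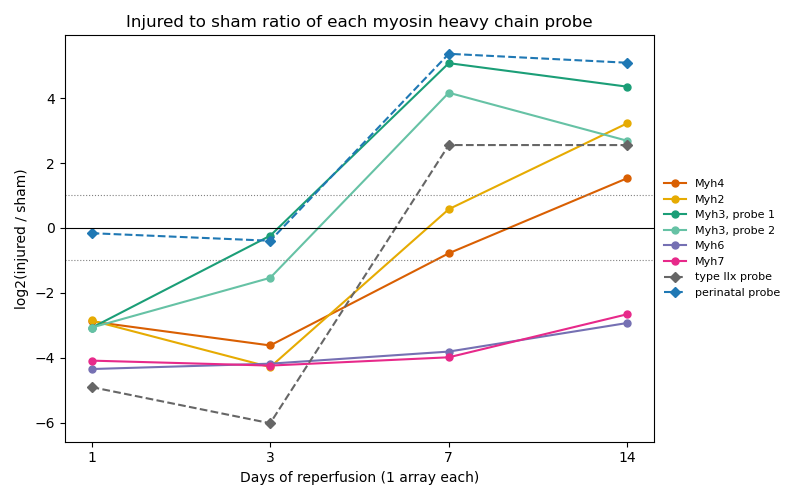
Ratio of injured to sham RNA (log2, vertical axis) for each myosin heavy chain probe on each day of reperfusion (days evenly spaced, 1 array each). Solid lines are the 6 member probes, dashed lines are 2 related probes, and dotted lines mark 2-fold. Myh6 and Myh7 stay below -2.6 on every day, both Myh3 probes are above 4 on day 7, and Myh4 and Myh2 cross from below to above sham.

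Myh4 encodes the IIb heavy chain of the fastest fibres. Its level in injured muscle was 12.80 on day 1, 11.97 on day 3, 13.62 on day 7 and 15.31 on day 14. The sham channels of the same arrays read 15.68, 15.60, 14.40 and 13.77. Injured muscle was therefore below sham on days 1, 3 and 7 and above it on day 14, and the injured and sham levels overlap over the course as a whole. The ratio was -2.89 on day 1 and -3.62 on day 3 (12.3-fold lower), then -0.78 on day 7 and 1.53 on day 14 (2.90-fold higher).

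Part of the course of Myh4 lay in the sham channel. The Myh4 sham level spanned 1.91 log2 units over the 4 arrays (SD 0.933, n = 4), wider than the measured sham range of any other member. With the 4 sham levels averaged, the ratios were -2.07, -2.89, -1.24 and 0.44, so that day 14 was no longer 2-fold above sham and day 7 was at least 2-fold below. With median centring, the ratios were -1.33, -2.46, 0.15 and 2.43, with day 7 above sham. The summed signal of 7 genes that work with the fast myosins was also lower in the later sham channels. It was 388289 in the day 1 sham channel, 348857 on day 3, 178971 on day 7 and 138544 on day 14. The sum leans on its brightest genes, Tnnc2 and Tnni2 (16.93 and 16.90 on day 1), and Tnnc2 was saturated on days 1 and 3. Sham levels of Atp2a1 were 12.92, 12.55, 12.35 and 12.77, with day 14 above day 3. The part of these sham levels in the Myh4 ratio was not tested.

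Myh2 encodes the IIa heavy chain of fast oxidative fibres. Injured levels were 9.78, 8.34, 12.81 and 15.05 on days 1, 3, 7 and 14. Sham levels on those arrays were 12.64, 12.63, 12.24 and 11.82, a span of 0.82. Day 3 was the low point, and the injured level was 22.2-fold higher on day 7 than on day 3. The ratio was -2.85 on day 1 and -4.29 on day 3 (19.6-fold lower), 0.58 on day 7 and 3.23 on day 14 (9.36-fold higher). On day 14 only 24 of 27418 probes used had a higher measured ratio. With the 4 sham channels averaged, the day 14 ratio was still 2.71. With median centring, the ratios were -1.58, -3.34, 1.43 and 4.07, with day 7 past 2-fold.

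The type IIx isoform has no probe under a member's name. A probe described in the array files as myosin heavy chain type IIx, at chr10:53917862-53917921 between the Myh2 and Myh4 probes, had lower ratios than either of them on days 1 and 3. Injured levels for it were 9.59, 8.19, 15.58 and 15.59, with saturated spots on days 7 and 14. Its sham levels were 14.50, 14.22, 13.03 and 13.04. The ratio was -4.91 on day 1 and -6.02 on day 3, when 1 probe of 28247 had a lower measured ratio. By loess, injured muscle was at least 5.87-fold higher on days 7 and 14. This fast gene was thus already past 2-fold above sham on day 7, when Myh2 was at 0.58 and Myh4 at -0.78. Its sham range of 1.47 was also wide, and with the sham channels averaged its ratios on days 7 and 14 were at least 1.89 and at least 1.90. The deposited log2 ratio of this probe was smaller than the loess ratio on day 7, at 1.63 against 2.55. Under median centring the measured ratios were -3.56, -5.03, 3.51 and 3.44.

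The promoters of the 3 adult fast genes carry a common stretch, shown because Myh2, Myh4 and the IIx probe were low and high on the same days other than day 7. Sequences are RefSeq's for the GRCr8 build, which had an entry for all 5 members, and each entry holds 250 bases before and 50 after the start of the gene. Capitals mark the longest run common to Myh1, Myh2 and Myh4, 20 bases, with 25 bases to either side.
Myh2, chr10:52355544-52355613, plus strand: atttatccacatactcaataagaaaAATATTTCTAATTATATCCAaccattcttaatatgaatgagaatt
Myh1, chr10:52384721-52384790, plus strand: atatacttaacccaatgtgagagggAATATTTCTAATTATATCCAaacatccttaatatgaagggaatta
Myh4, chr10:52421946-52422015, plus strand: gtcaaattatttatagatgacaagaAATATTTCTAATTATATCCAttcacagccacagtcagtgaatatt

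This run began 170 bases before the start of Myh2, 166 before that of Myh1 and 177 before that of Myh4. It was found in 5 of 33469 promoter entries on either strand, and the 2 entries beside these 3 belong to a gene on the opposite strand across the start of Myh4. The members Myh3, Myh6 and Myh7 did not hold it in these windows. Of the motifs searched on both strands, CANNTG (an E-box, the kind of site MyoD proteins bind) had 3 matches for Myh4, 1 for Myh3, 1 for Myh6, 4 for Myh7 and 0 for Myh2, and 72.1% of all promoters had at least 1. TATAAA was present for Myh2, Myh3 and Myh4 and in 14.2% of all promoters, and was not found for Myh6 or Myh7. CATTCC (bound by TEAD proteins) had 1 match each for Myh4 and Myh6, and 14.2% of promoters held it. The MEF2 and CArG motifs each had 1 match among the members, both for Myh4, against 3.29% and 1.64% of promoters. These matches describe the letters of the windows only.

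Myh3 encodes the embryonic heavy chain. For probe 1, injured levels were 7.26, 10.22, 15.65 (a saturated spot) and 14.59 on days 1, 3, 7 and 14. Its sham levels were 10.34, 10.46, 10.57 and 10.24, a span of 0.32. Injured muscle was below all 4 sham levels on day 1, level with the lowest of them on day 3 and above all of them on days 7 and 14. The ratio was -3.08 on day 1 (8.46-fold lower) and -0.24 on day 3, and injured muscle was at least 33.8-fold higher on day 7 and 20.4-fold higher on day 14. Its measured ratio was among the 2 highest of 27058 probes used on day 7, and 4 of 27418 were above it on day 14. Saturated spots give bounds, so no exact rank can be given.

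Probe 2 gave the same order of days at a lower signal. Injured levels were 6.78, 8.44, 14.72 and 12.50, and sham levels were 9.86, 9.98, 10.55 and 9.82. Ratios were -3.07, -1.54, 4.17 (18.0-fold higher) and 2.68 (6.43-fold higher). None of its spots was saturated, and its injured level was 2.21 lower on day 14 than on day 7. The 2 probes agreed to 0.01 on day 1 and differed by 1.30 on day 3 and by 1.67 on day 14, many times the spot noise. Only probe 2 was 2-fold below sham on day 3. Under median centring, the measured ratios of probe 1 were -2.09, 0.70, 5.97 and 5.15, with a change of sign on day 3. Those of probe 2 were -2.18, -0.68, 5.02 and 3.43, short of 2-fold on day 3.

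The perinatal probe, from the other developmental gene of the cluster, was high on days 7 and 14, as Myh3 was. On day 1 neither channel was well above background, so no difference could be read, with levels of 6.11 in injured and 6.27 in sham muscle. On day 3 the injured level was 6.17, and the sham level of 6.57 was not well above background. Injured levels were then 15.64 (saturated) on day 7 and 13.60 on day 14, against sham levels of 10.27 and 8.51. Injured muscle was at least 41.3-fold higher on day 7 and 34.1-fold higher on day 14. Its measured ratio was the highest of all probes used on both arrays, although on day 7 Myh3 probe 1 was saturated as well, so their order on that day cannot be given. The sham channel of this probe also varied, being near background on the first 2 arrays and well above it on the others, a span of 4.00.

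**Figure D2:**
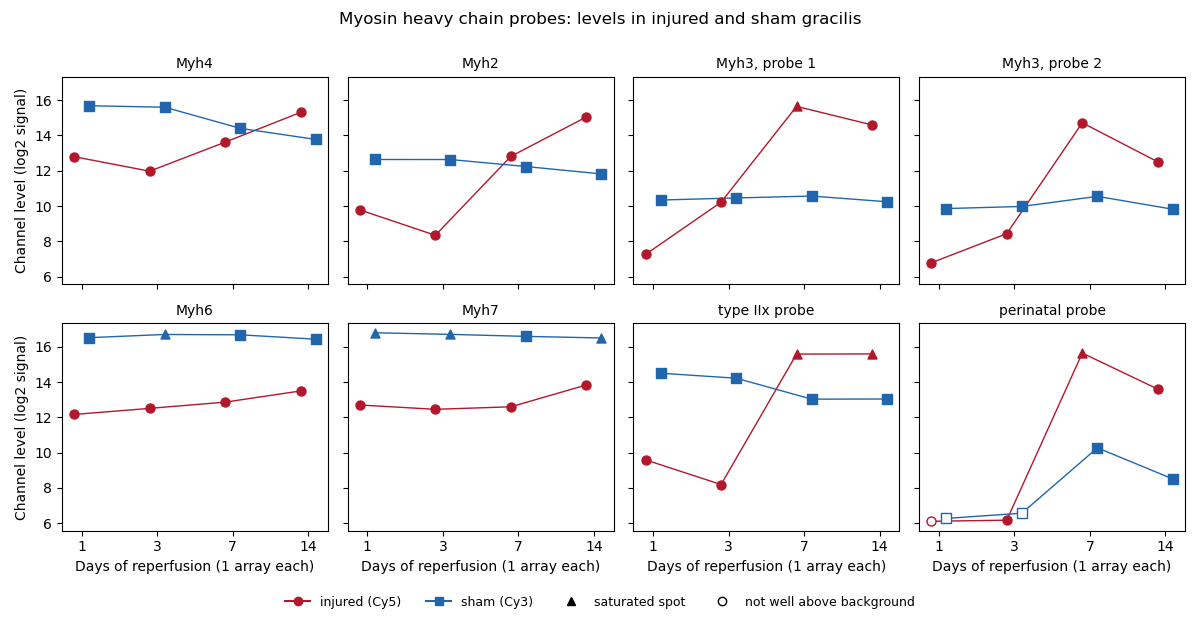
Levels (log2 signal, vertical axis) of each probe in injured muscle (circles) and sham muscle (squares) on the array of each day. Triangles are saturated spots and open symbols are not well above background; panels show different probes, whose levels cannot be set against each other. Sham levels of Myh6 and Myh7 stay above 16.4, but saturation (day 3 for Myh6, days 1, 3 and 14 for Myh7) can hide a change in them. Sham levels of Myh4 and of the type IIx probe are lower on days 7 and 14 than on days 1 and 3.

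Myh7 encodes the slow, or beta, heavy chain of type I fibres. Its injured levels were 12.70, 12.45, 12.60 and 13.83 on days 1, 3, 7 and 14. Sham levels on the same arrays were 16.79, 16.70, 16.59 and 16.49, saturated on days 1, 3 and 14. Every injured level was below every sham level, but each level is 1 sample of a different day. How many probes of the whole array show the same was not counted. Injured muscle was at least 17.1-fold lower on day 1, at least 19.0-fold lower on day 3, 15.9-fold lower on day 7 and at least 6.32-fold lower on day 14. The injured levels of days 1, 3 and 7 lay within 0.24 of each other, and day 14 was 1.24 above day 7. Because 3 of the 4 sham spots were saturated, the sham channel gives no measure of spread for this probe. Under median centring the measured ratios were -2.50, -3.03, -3.02 and -1.73, smaller than with loess and still more than 2-fold below sham on each day.

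The Myh6 probe had injured levels of 12.16, 12.51, 12.86 and 13.50. Its sham levels were 16.51, 16.69 (saturated), 16.67 and 16.43. Every injured level was again below every sham level, with the same limit as for Myh7. Injured muscle was 20.4-fold lower on day 1, at least 18.2-fold lower on day 3, 14.1-fold lower on day 7 and 7.63-fold lower on day 14. Its measured ratios under median centring were -2.78, -2.97, -2.83 and -2.02. The lowest injured level came on day 1 and the highest on day 14. Among probes used on all 4 arrays, the named gene whose 4 ratios lay closest to those of Myh6 was Myh7, at a Euclidean distance of 0.42 log2 units, the gene with which its probe shares 27 bases. Saturated sham spots make 3 of the Myh7 ratios and 1 of the Myh6 ratios bounds, so this distance is one of measured values only.

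Probes of heart muscle genes and other probes at the Myh6 locus are given beside the Myh6 probe. Of 6 heart muscle genes listed, 5 were matched. Nppa (atrial natriuretic peptide) had ratios of -0.45, -0.43, -0.28 and -0.41. It was dim, with levels between 6.27 and 6.52 in injured and between 6.71 and 6.80 in sham muscle. The lowest injured levels well above background were between 5.77 and 6.10, so a large fall could not have shown. Myl7 (atrial light chain) stayed between 0.01 and 0.09 by its brightest probe, and another probe was at -0.28 on day 1. Nppb (B-type natriuretic peptide) was the exception by its brightest probe, at -2.19, -2.25, -2.52 and -2.63, while another Nppb probe stayed between -0.09 and 0.19. The list median lay between -0.52 and -0.32, set against a median of all probes between 0.02 and 0.04. A probe within intron 1 of Myh6 had sham signals that were not well above background on days 3 and 7, and ratios between -0.12 and -0.08. A further probe lay between the Myh6 probe and the intron 1 probe, at chr15:33051075-33051220, on the plus strand and so opposite to Myh6. It was well above background in both channels on every day, with sham levels between 8.53 and 8.89. Its ratios were -1.50, -1.56, -0.81 and -0.96, or -0.72, -0.88, -0.22 and -0.40 under median centring. Which RNA it reads was not tested. These values do not settle the source of the Myh6 signal.

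Both tests used all 4 arrays, which are different days and not replicates, over the 23651 probes used on each. In limma's test of a trend over log2 of the day, the slope per doubling of the day was 2.22 ± 0.392 (SE) for Myh3 probe 1, 1.84 ± 0.475 for probe 2, 1.73 ± 0.553 for Myh2 and 1.20 ± 0.364 for Myh4. It was 0.350 ± 0.0905 for Myh6 and 0.330 ± 0.152 for Myh7. All 6 slopes were positive, but limma's adjusted p lay between 0.128 and 0.344 and none of the 6 passed, although 5 had an unadjusted p under 0.05. The background was 0% of probes rising and 0% falling, with 4584 at an unadjusted p under 0.05. Without the array of day 3 limma called 588 probes rising and 215 falling, and among them Myh2, with a slope of 1.52 and an adjusted p of 0.0374. Without day 1 the slopes were 3.41 for Myh2, 2.32 for Myh4, 0.555 for Myh6 and 0.694 for Myh7. Without day 14 they were 1.12, 0.690, 0.188 and 0.0302 in the same order, so that the slope of Myh7 rests on that array.

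In limma's test of the mean over the 4 arrays against 0, Myh6 (mean ratio -3.82 ± 0.257 SE, adjusted p = 0.0374) and Myh7 (-3.75 ± 0.295, adjusted p = 0.0444) passed as lower, in 4 of 4 arrays each. Saturated sham spots make the ratios of Myh6 on day 3 and of Myh7 on days 1, 3 and 14 bounds, and their effect on the SE was not tested. Among all probes 0.182% passed as lower and 0.0211% as higher. Myh4 (mean -1.44), Myh2 (-0.84) and Myh3 (1.53 and 0.56) did not pass, with limma's adjusted p between 0.398 and 0.828. The calls for Myh6 and Myh7 held without the array of day 14 and were lost without that of day 1, day 3 or day 7. The call for Myh7 was also lost with the 4 sham levels averaged (limma's adjusted p = 0.0508) and with no filter on dim probes (0.0512). Without those arrays limma's adjusted p lay between 0.0881 and 0.286 for Myh6 and between 0.0945 and 0.286 for Myh7, and the means stayed between -3.82 and -3.58.

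**Figure D3:**
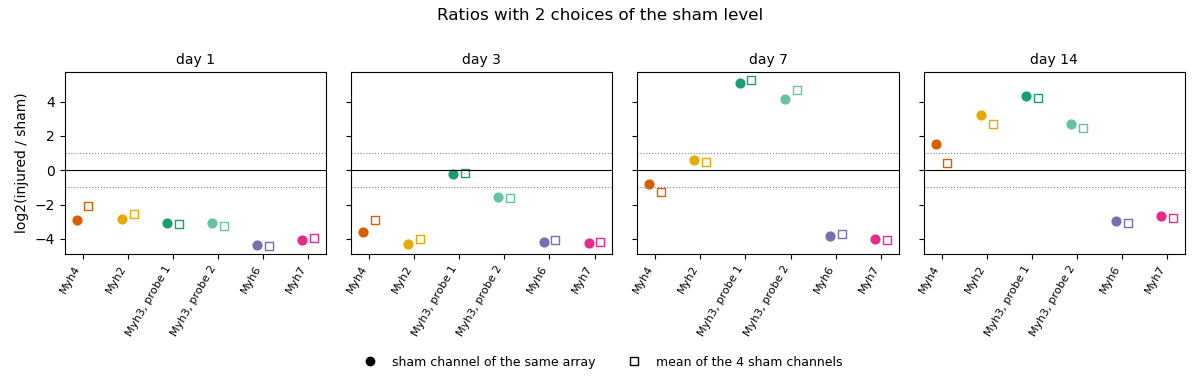
Ratio (log2, vertical axis) of the 6 member probes on each day, computed against the sham channel of the same array (filled circles) or with the 4 sham levels averaged (open squares); dotted lines mark 2-fold. The 2 ratios differ most for Myh4, which on day 14 is at 1.53 by its own sham channel and at 0.44 by the mean.

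The genes whose products work with each myosin were read from lists by the brightest probe of each gene. Of 7 measured partners of the fast myosins, 7 were at least 2-fold lower on days 1 and 3, with medians of -3.22 and -4.51. On day 1 the lowest were Tnnc2 (fast troponin C), at -3.38 with a saturated sham spot, and Myl1 (fast light chain) at -3.35. Actn3, the Z-disc actinin of fast fibres, was at -5.23 on day 3 and Pvalb, the calcium buffer parvalbumin, at -5.18. On day 7 the median was -0.08, or 0.95 under median centring and -0.62 with the sham levels averaged. Tnnt3 (fast troponin T) was higher at 1.1 on day 7 and Pvalb was still at -3.38. Injured spots of Tnni2 and Tnnc2 were saturated on days 7 and 14, and that of Actn3 on day 14. The fast partner medians of those days therefore rest in part on bounds. On day 14, 5 of 7 were at least 2-fold higher and 0 lower, with a median of 1.1 and Pvalb at 2.37. With the 4 sham levels averaged that count was 3 of 7 and the median 0.87, and Tnni2 and Tnnc2 had measured ratios of -0.64 and -0.60 with saturated injured spots. Under median centring the medians were -1.67, -3.43, 0.95 and 2.01, with 7 of 7 higher on day 14. By measured ratios, Myh4 lay within the range of these partners on days 7 and 14 and just above it on days 1 and 3. Myh2 was above all of them on day 14, also by measured ratios.

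Partners of the slow and cardiac myosins were mostly low on all 4 days. Of 9 measured, 7 were at least 2-fold lower on days 1 and 3, 6 on day 7 and 5 on day 14, with 0 higher on any day. Medians were -3.80, -3.86, -1.50 and -1.23. Under median centring they were -2.61, -2.76, -0.56 and -0.36, with 4 of 9 lower on days 7 and 14 and 2, 2, 1 and 0 higher over the 4 days. Tnnc1 (slow troponin C) was lowest on day 1 at -5.00 and on day 3 at -4.98. Myl3 and Myl2, light chains of slow and ventricular muscle, were at -4.13 and -3.87 on day 7, and Myl2 was at -3.43 on day 14. Tnni1 (slow troponin I) was nearer to sham at -1.50 and -1.23 on days 7 and 14, and Casq2, a calcium store protein, was at 0.84 and 0.24. Probes of Tpm3 disagreed, with the brightest at 0.82 and the lowest at -4.97 on day 1.

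Genes of developing muscle were read beside Myh3. Of 8 measured, 5 were at least 2-fold lower on day 1 (median -1.86), 2 on day 3 (median -0.09, or 0.41 under median centring), 6 were higher on day 7 (median 2.29) and 3 on day 14 (median 0.79, or 1.44 under median centring with 6 higher). The day 1 median was -0.94 under median centring. Igf2, a fetal growth factor, reached 4.61 on day 7 and 3.00 on day 14, and Chrng, the fetal subunit of the acetylcholine receptor, was at 3.07 on day 7. Tnnt2, a troponin T of embryonic and heart muscle, was at 2.23 on day 14. Actc1, the actin of heart and embryonic muscle, was at -3.83 on day 3 by its brightest probe and at -0.88 by another. The Myh3 probes were at -0.24 and -1.54 on that day, so the order of Actc1 and Myh3 depends on the probe. Dlk1 went the other way on day 7, at -1.01.

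**Figure D4:**
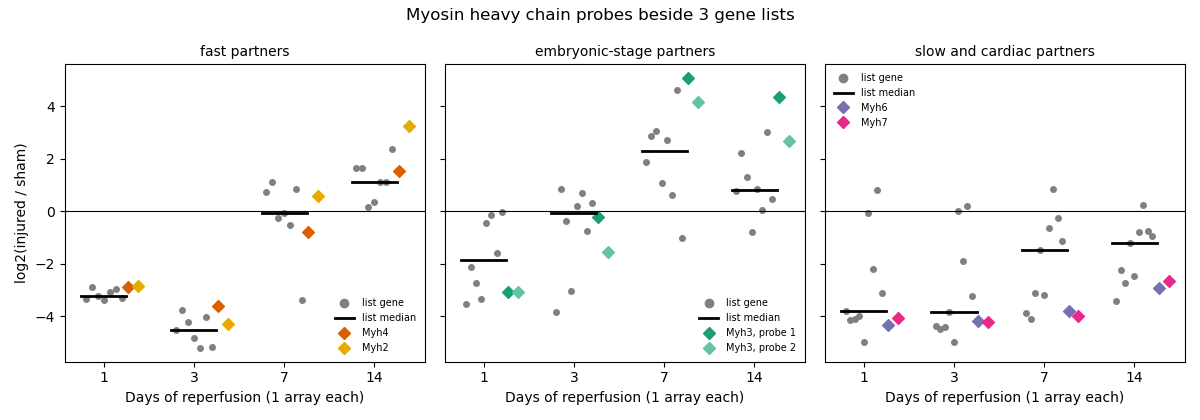
Ratios (log2, vertical axis) of genes that work with each kind of myosin (grey points, 1 for each gene, with the list median as a bar) and of the myosin probes (diamonds, set to the right of each day). Fast partners have medians of -4.51 on day 3 and 1.1 on day 14, developmental partners peak on day 7 at 2.29, and slow partners have a median of -1.23 on day 14, or -0.36 under median centring.

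Proteins that bind or fold myosin were counted separately. Of 13 measured genes of the thick filament and of myosin folding, 12 were at least 2-fold lower on days 1 and 3, with medians of -2.86 and -3.28. Ttn (titin, the filament that anchors myosin) was at -3.82 and Mybpc1 (slow myosin-binding protein C) at -3.73 on day 1. Another Ttn probe was at -1.07 on that day. Trim63, a ubiquitin ligase that acts on myosin, was at -4.82 on day 3. The exception was the chaperone Hsp90aa1, at 0.30 and 0.25 on those days. On day 7, 3 were higher and 3 lower with a median of -0.12, which was 0.57 under median centring, and Mybpc2 (fast myosin-binding protein C) was at -2.25 while Mybph was at 1.34. On day 14, Myom2 and Myom1, M-band proteins that link myosin filaments, were at 2.03 and 1.15 by their brightest probes. Other probes on that day were as low as 0.40 for Myom2 and 0.33 for Myom1. The list median on day 14 was 0.14, or 0.93 with 6 higher under median centring.

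Regulators of the myosin genes had list medians near sham, with a few genes far from it. Of 17 measured on day 1, 4 were at least 2-fold lower and 0 higher, with medians of -0.17, -0.11, 0.25 and 0.19 over the 4 days. Under median centring they were 0.32, 0.34, 0.67 and 0.76, with 7 of 18 higher on day 7 in place of 1. Myog (myogenin, a factor of differentiation) was at -3.74 on day 1, -1.45 on day 3, -0.02 on day 7 and -1.22 on day 14. Myod1, the factor of activated myoblasts, was at -0.18, 1.95, 1.01 and 0.11. Its sham level was 8.72 on day 7 and between 10.52 and 10.93 on the other arrays, and with the sham levels averaged the day 7 ratio was -0.53. Myf6 (Mrf4), abundant in mature fibres, was at -2.86 and -3.68 on days 1 and 3 and at 0.57 and 0.35 on days 7 and 14. Thrb, a thyroid hormone receptor, was at -1.78 on day 3. The highest regulators on day 14 were Vgll4 at 1.00 and Tbx15 at 0.84, while another Tbx15 probe was at -0.02.

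Genes nearest to each member over the 4 ratios were taken by Euclidean distance among named probes used on all arrays. Nearest to Myh4 were Cmbl (distance 0.51), Pygm, the glycogen phosphorylase of muscle (0.67), and Txlnb (0.97). Nearest to Myh2 were Pgam2, the muscle phosphoglycerate mutase (1.14), Myoz1, a Z-disc protein of fast fibres (1.63), and Myom2 by its brightest probe (1.64). For Myh3 probe 1 the nearest were farther off, Igf2 at 2.12, Cilp at 2.63 and Ubd at 2.69. Besides Myh7, Myh6 was nearest to Ankrd2, a stretch-responsive muscle protein (0.65), and to a Tpm3 probe (0.77). Besides Myh6, Myh7 was nearest to Myl3 (0.50) and Ppp1r1a (0.69), again by measured ratios that are in part bounds.

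Among the remaining myosin heavy chain probes, 1 was low on days 1 and 3 and high on days 7 and 14. It was described only as a myosin heavy chain fragment and lay beyond the perinatal probe, at chr10:54086889-54086948. Its ratios were -1.26, -1.10, 1.83 and 1.24, while a neighbouring probe for the same transcript was not well above background in either channel on any day. Myh7b, a relative of Myh7 made at low level in muscle and heart, had ratios of -1.73, -1.28, -1.36 and -0.99. Under median centring the Myh7b ratios were -1.24, -0.75, -0.91 and -0.52, past 2-fold on day 1 only. The non-muscle chain Myh10 was at -1.36 on day 1 by its brightest probe and between -0.28 and 0.40 later. On day 1 that probe was at -0.36 under median centring, and another Myh10 probe was at 0.25 by loess. Non-muscle Myh9 and Myh14 stayed within 0.70 of sham on all days. Probes described as smooth muscle Myosin-11 were between -0.78 and 0.39. A probe on chromosome 11 described as similar to myosin heavy chain (RGD1565858) had ratios of -0.03, 0.04, 1.35 and 0.83. Its sham signal was not well above background on days 1, 3 and 7.

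Markers of other cells in the muscle also differed between injured and sham channels. Of 6 neutrophil markers 3 were at least 2-fold higher on day 1 (5 under median centring), with S100a8 at 2.50. Mpo was within 0.18 of sham on all days. Neutrophil marker signals summed to between 539 and 13049 in injured muscle and between 1866 and 2658 in sham muscle. Of 6 fibroblast markers 4 were lower on day 1 and 4 higher on days 3, 7 and 14. Under median centring 1 was lower on day 1 and 5 were higher on days 3, 7 and 14. The fibroblast median on day 1 was -1.34, or -0.42 under median centring. Col1a1 was at -2.54 on day 1 by its brightest probe and at -1.14 by another. Fibroblast marker sums lay between 17724 and 137976 in injured and between 26824 and 58036 in sham muscle. Macrophage marker sums were between 20548 and 57423 in injured and between 13809 and 17755 in sham muscle, and on day 7, 4 of 7 were higher and 2 lower, Cd163 at -1.95 and Mrc1 at -1.69. On day 14, 2 were higher and 2 lower. Under median centring the macrophage counts were 4 higher and 1 lower on day 7, and 3 higher and 2 lower on day 14. Lymphocyte markers summed to between 1411 and 5616 in injured and between 2219 and 2578 in sham muscle. On days 7 and 14, 2 of 5 measured were higher and 1 lower, Cd8a at -1.57 and -1.88. Under median centring 2 lymphocyte markers were higher on each of these days, with 0 lower on day 7 and 1 on day 14. Skeletal muscle markers themselves were at least 2-fold lower for 6 of 6 genes on days 1 and 3, with medians of -3.62 and -4.14. The medians were then -0.49 and 0.19 on days 7 and 14. Injured spots of Ckm on days 7 and 14 and of Mb on day 14 were saturated, so these late medians rest in part on bounds. Under median centring the medians were -2.15, -3.06, 0.49 and 1.1. The part of these in the myosin ratios was not tested. Set beside those medians, Myh7 was at -4.09 and -4.24 on days 1 and 3 and at -3.99 and -2.66 on days 7 and 14, and Myh6 at -3.81 and -2.93 on the last 2 days.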

How the data were processed

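RNA was measured on 4 2-colour Agilent arrays, 1 for each day. Per the file headers, the deposited intensity values are mean spot brightness and median local background, not normalized, extracted with Feature Extraction 10.5.1.1 (the submitters' processing notes give 9.5.3). Per the file headers, the deposited log10 ratio is Cy5 over Cy3 after the software's background subtraction and dye normalization. The deposited table of log2 ratios matched it to within 0.005 over 40972 probes in every column, each with a median of 0, which settles its scale and its direction, injured over sham.

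Ratios were computed with R 4.3.3 and limma 3.58.1: normexp background correction with an offset of 50, loess with a span of 0.3, then the mean over spots of a probe. Control spots and outlier spots had no weight. Levels came from quantile normalization (Aquantile) after loess. A probe counted as used on a day where either channel was well above background. Ratios with a saturated spot are bounds, written as at least N-fold. A rule of 2-fold marked single days. Trend and mean were tested with limma over 23651 probes, with Benjamini-Hochberg adjustment at 0.05. Lists were read by the probe with the highest mean brightness for each gene. Names came from the GRCr8 gene table: 11150 probes matched by accession, 5116 by symbol, 3422 by an older symbol and 23 by description, and 21301 kept the name in the file. Coordinates of probes are those of the files (rn4).

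Named genes were all members, then for each list the 2 genes farthest in the direction of its median, genes going against it, and the 3 nearest genes of each member. The members, lists and tests were chosen with earlier results of these data known. Other myosin probes were chosen by their descriptions with their values known. The normalization and both tests were tested on simulated data. The alternatives were other background corrections and normalizations, another sham level, other filters on dim probes, another variance model and leaving out each array. List medians and counts under median centring and with the sham levels averaged were added after seeing the data. Days 1, 3 and 7 were scanned in 1 session and day 14 in another, so session and day cannot be told apart. Intervals for counts do not apply to arrays, whose number limits the precision.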

Additional observations from a re-analysis of the deposited data

Results flagged for a closer look

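Of the member probes, 4 stood on opposite sides of sham at the 2 ends of the course, at least 2-fold lower on day 1 and at least 2-fold higher on day 14. The log2 ratio was 7.43 higher on day 14 than on day 1 for Myh3 probe 1, 6.08 for Myh2, 5.76 for Myh3 probe 2 and 4.42 for Myh4. Each day is 1 array, so the difference was not tested. For Myh4 the day 14 ratio against the mean of the sham channels was 0.44, under 2-fold.

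A probe on the opposite strand of the Myh3 locus, at chr10:53800020-53800079 on the minus strand between the 2 Myh3 probes, was outside the comparisons and gave a signal. On day 7 it had a level of 7.75 in injured muscle, well above background, against 6.41 in sham muscle, not well above background, a log2 ratio of 1.34. A second probe from the same sequence tag was at 0.25 on that day. Whether these probes read RNA of the opposite strand or of Myh3 was not tested.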

How the results depend on the processing

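No count of member probes at least 2-fold from sham moved by more than 1.5 times under the 6 alternatives for it, and of the 24 single ratios only 2 changed sign, both under median centring (Myh3 probe 1 on day 3, Myh4 on day 7). The count of members whose mean differed from 0 was 2, and it was 1 (Myh6) with the mean of the 4 sham channels and 1 (Myh6) with no filter on dim probes. Leaving out 1 array at a time gave 0 to 2 members for the mean and 0 to 1 for the trend, where the 0 members of the full trend test became 1 (Myh2) without day 3. Over all probes the mean test called 5 higher and 43 lower. It called 649 and 209 with the deposited log ratio, 9107 and 152 with median centring, 1 and 39 with plain subtraction, 0 and 30 with both channels above background, 0 and 14 with the mean sham level, 51 and 98 with the robust variance model, 0 and 9 without day 14, and 0 and 0 without day 1, 3 or 7. On the scanner's processed signals, the sham range of Myh4 was 2.27 in place of 1.91. No paired analysis was possible because each group had 1 array. Saturated spots limit Myh7 on 3 days and Myh6 and Myh3 on 1 each, and no value carries an error between animals.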
